A study of Mus musculus with 10 samples.

Results

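A set of 9 growth factor and tissue repair genes were followed in CD4+CD25- T cells taken by sorting from breast tumours of PyMT mice. They were Areg, Hbegf, Vegfa, Vegfb, Pdgfa, Pdgfb, Igf1, Ecm1 and Penk, chosen by name, and all 9 were found among the 17363 named genes of the deposited expression table. PyMT mice carry a transgene that drives mammary tumours, and these mice were C57BL/6 and 23 weeks old. Every animal carried floxed Tgfbr2 (Tgfbr2fl/fl), the gene of a TGF-beta receptor chain. WT animals had no Cre. KO animals carried ThPOKCre, a Cre driven by a gene of the CD4 lineage, which deletes floxed Tgfbr2 in those cells. IL4-/- animals lacked Il4 and had no Cre, and IL4-/-KO animals lacked Il4 and carried ThPOKCre. The design asks what loss of the TGF-beta receptor does to tumour-infiltrating CD4 T cells and whether the cytokine IL-4 matters for it. Each genotype had 2 replicates, and each KO replicate had a first and a repeat library from the same RNA, so that 10 libraries stood for 8 replicates. The labels do not tie replicates to separate mice. The p-values therefore cover the variation among these samples alone, and part of it may be technical.

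Beyond killing and helping other immune cells, T cells can secrete factors that act on tissue. Amphiregulin (Areg) and heparin-binding EGF-like growth factor (Hbegf) are ligands of the EGF receptor that are cut from the cell surface by the sheddase ADAM17. Vegfa is the chief growth factor of blood vessels, and hypoxia is known to induce it. Vegfb is its relative and binds VEGF receptor 1. Pdgfa and Pdgfb encode the chains of platelet-derived growth factor, which acts on mesenchymal cells and on the pericytes of vessels. Igf1 encodes insulin-like growth factor 1. Ecm1 encodes a secreted extracellular matrix protein that is also made by type 2 helper T cells, and Penk encodes the precursor of the enkephalin opioid peptides. In mice, Areg made by regulatory T cells is known to aid tissue repair, and Penk is known to be expressed in subsets of regulatory T cells.

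The promoters of Areg, Ecm1 and Vegfa are shown because the largest genotype differences among the better measured members fell on Areg, Ecm1 and the pair of Vegfa and Hbegf. Each is the 250 bases before a RefSeq transcript start in GRCm38.p6, the assembly behind mm10, read on the gene's strand. Capitals mark matches, on either strand, to 7 motifs: a cAMP response element (TGACGTCA), an AP-1 element (TGANTCA), the hypoxia response cores ACGTG and GCGTG, a GC box (GGGCGG), a STAT6 element (TTC and GAA with 4 bases between them) and the Smad box (CAGAC).
Areg, chr5:91139349-91139598, plus strand: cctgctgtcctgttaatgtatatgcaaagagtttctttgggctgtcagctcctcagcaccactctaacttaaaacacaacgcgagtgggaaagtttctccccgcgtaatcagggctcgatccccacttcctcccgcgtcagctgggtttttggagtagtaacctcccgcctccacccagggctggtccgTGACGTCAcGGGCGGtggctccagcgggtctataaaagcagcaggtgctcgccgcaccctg
Ecm1, chr3:95739570-95739819, minus strand: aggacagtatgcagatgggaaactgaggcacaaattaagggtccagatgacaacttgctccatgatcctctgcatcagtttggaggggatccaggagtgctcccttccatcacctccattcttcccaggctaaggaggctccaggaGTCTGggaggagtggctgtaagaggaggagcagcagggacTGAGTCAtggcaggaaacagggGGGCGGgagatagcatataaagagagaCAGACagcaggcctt
Vegfa, chr17:46032378-46032627, minus strand: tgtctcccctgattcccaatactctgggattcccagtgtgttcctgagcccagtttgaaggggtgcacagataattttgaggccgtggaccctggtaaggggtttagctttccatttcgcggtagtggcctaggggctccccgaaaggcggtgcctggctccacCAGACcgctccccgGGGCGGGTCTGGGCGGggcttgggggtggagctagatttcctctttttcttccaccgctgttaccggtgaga
The Areg promoter held the cAMP response element at position -61 from the start, a motif found in 1.55% of 32851 RefSeq promoters of this length, and a GC box at -52. The Ecm1 promoter held an AP-1 element at -64, found in 6.75% of promoters, beside a GC box at -42 and Smad boxes at -104 and -15. This Vegfa promoter held GC boxes at -72 and -62 and Smad boxes at -86 and -66, of which the last overlaps a GC box. GC boxes stood in 32.7% and Smad boxes in 42.2% of all promoters, so their presence is common. None of the 3 printed windows matched the STAT6 element, which 5.85% of promoters hold, or a hypoxia core, held by 16.6% (ACGTG) and 28.2% (GCGTG). A second RefSeq promoter window of Vegfa, not printed, held both hypoxia cores, ACGTG at -211 and GCGTG at -218. That window, chr17:46025164-46025413, lies inside the annotated Vegfa gene (46016993 to 46032369, minus strand). Its bases are therefore part of the gene and not upstream of it. A match is a string of letters and not a measured binding site. Of the 9 genes, 6 had a promoter in the table.

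The libraries were checked before the genes were read. Read totals were 17121030 to 18479090 in WT and in the first libraries of KO, and 28003231 to 33802781 in the other libraries, and 1 read was worth 0.644 to 1.47 normalized counts. A normalized count is the deposited signal, reads divided by 1 size factor per library. T cell genes were abundant in every library, with Cd4 at 12165 to 40172 and Cd3e at 13302 to 33606 normalized counts, while Cd8a stayed at 783 or below. The mean of the core T cell list (11 of 12 markers found) was 13.15 to 14.35 on the log2 scale. RNA of other cell types varied between replicates of 1 genotype. The 19 markers of mammary and tumour epithelium summed to 233000 normalized counts in WT replicate 1 and 35100 in WT replicate 2. In the KO libraries they summed to 126600 to 180500, in IL4-/- to 48360 and 149200, and in IL4-/-KO to 18450 and 69720, with only Krt5 and Wap at 0 in any library. The 14 macrophage markers summed to 125900 in IL4-/- replicate 2 and to 12620 to 25700 elsewhere. The repeat library of KO replicate 2 had the fewest genes detected, 12459 against up to 15899. Il4 itself stood at 107 and 276 normalized counts in the WT replicates, at 426 and 523 in the first KO libraries, at 352 and 236 in their repeats, at 97 and 75 in IL4-/-, and at 99 and 40 in IL4-/-KO, so reads were counted at Il4 in both genotypes that lack it. Tgfbr2 stood at 7876 and 7894 in WT, at 5828 and 5803 in the first KO libraries, at 7632 and 9442 in their repeats, at 13816 and 12544 in IL4-/-, and at 7762 and 8205 in IL4-/-KO. By library, KO overlapped WT only through the repeat of KO replicate 2, at 9442, and the other KO libraries lay below WT. IL4-/-KO lay below IL4-/-. Counts over the whole gene do not check the deletion of a part of it.

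Per length of exon, Penk and Ecm1 were the most abundant of the 9 genes. Their medians over the 8 replicates were 62.4 and 53.6 RPKM (recovered reads scaled by exon length and by the library total), and Areg followed at 22.3. Vegfa, Vegfb and Hbegf were close together at 6.86, 6.61 and 5.90 RPKM, Pdgfb was at 2.82 and Pdgfa at 0.736. Igf1 was near the limit of detection at 0.0709 RPKM. The genes also differed in how far they varied. From the lowest to the highest replicate, normalized counts spanned 31.4-fold for Vegfa, 23.2-fold for Hbegf, 11.8-fold for Pdgfa, 11.7-fold for Areg, 8.12-fold for Pdgfb, 7.92-fold for Ecm1, 3.93-fold for Penk and 2.33-fold for Vegfb.

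**Figure D1:**
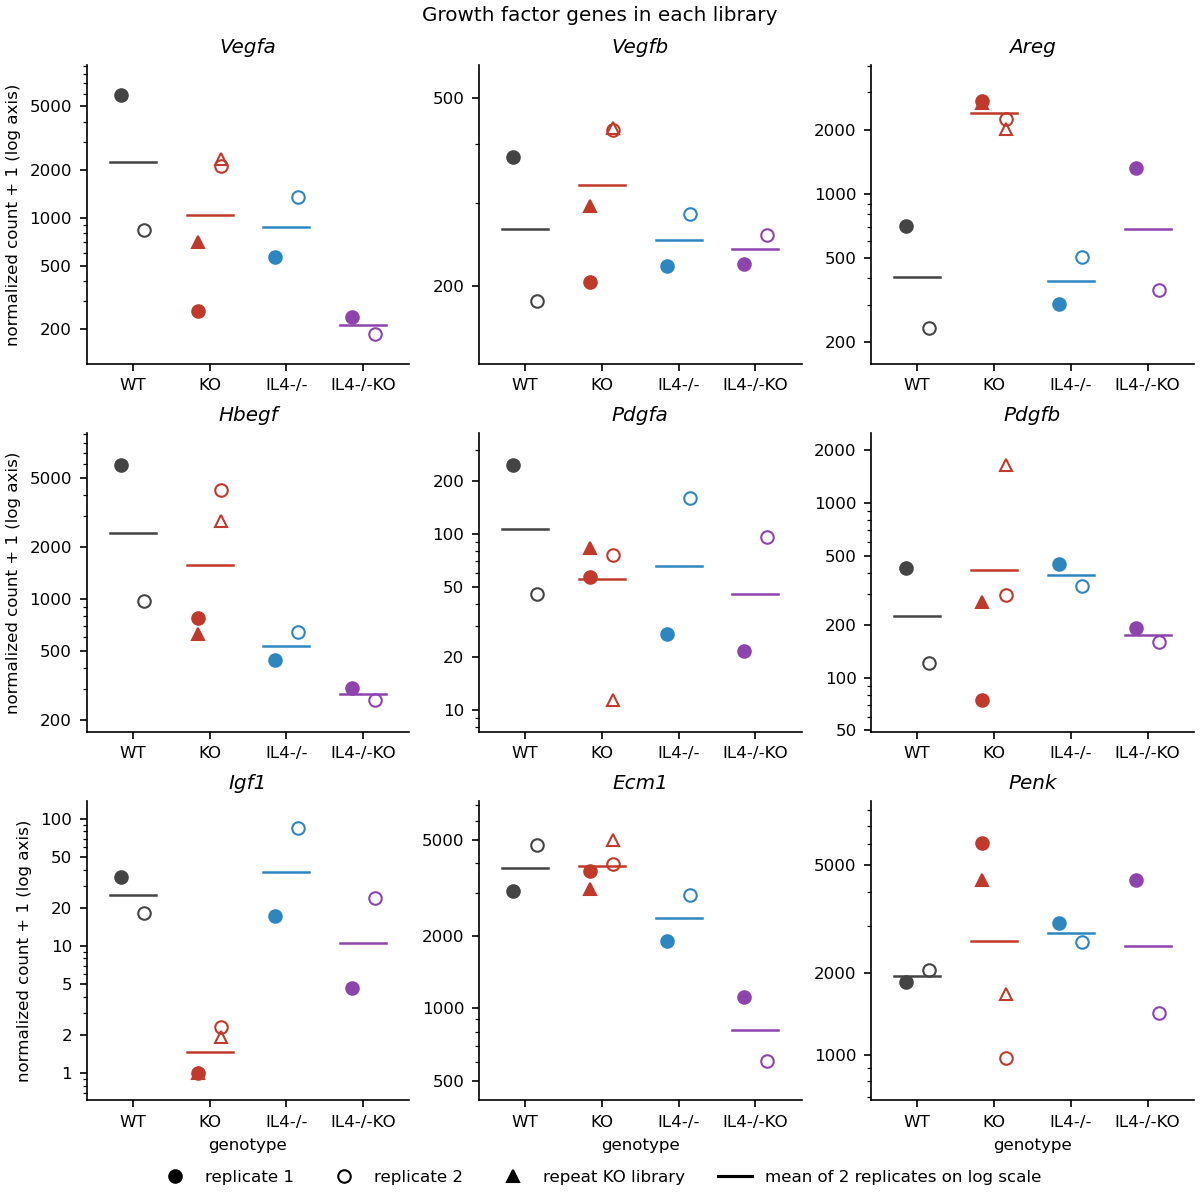
Normalized count + 1 (log axis) of each growth factor gene in each library, by genotype. Filled circles are replicate 1, open circles replicate 2, triangles the repeat KO libraries and bars the mean of the 2 replicates on the log scale. All 4 KO libraries of Areg sit at 2009 or above and both IL4-/-KO replicates of Ecm1 at 1105 or below, apart from the other genotypes.

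Areg (chromosome 5, 91139599 to 91148432, plus strand, mm10) was highest in KO. It stood at 703 and 232 normalized counts in the WT replicates, at 2737 and 2247 in the first KO libraries, at 2679 and 2009 in their repeats, at 301 and 501 in IL4-/-, and at 1324 and 352 in IL4-/-KO. Every KO library lay above every library of the other genotypes, while WT, IL4-/- and IL4-/-KO overlapped. The mean was 2418 ± 410 in KO and 468 ± 333 in WT (SD, n = 2 replicates each), 401 ± 141 in IL4-/- and 838 ± 688 in IL4-/-KO. The log2 fold change of KO against WT was 2.57 ± 0.74 (SE), and it did not pass the test across all genes (limma adjusted p = 0.345). IL4-/-KO against KO, which shares the KO libraries, gave -1.81 ± 0.74 (limma adjusted p = 0.414). Without IL4-/-KO replicate 1, which held the 1324 counts, that difference was -2.77, and without replicate 2 it was -0.86. The Areg libraries made from one RNA differed by 1.02-fold and 1.12-fold only, so the gene was measured alike in both. Within the shallower set of libraries, WT against the first KO libraries, the difference was 2.61 (limma adjusted p = 0.443). With the epithelium list mean as a covariate the KO difference from WT was 2.45, and with the macrophage list mean it was 2.53. By list median, neutrophil markers moved in the same directions as Areg. Their list had a median log2 fold change of 3.03 in KO against WT, with 8 of 9 tested genes higher, and of -3.83 in IL4-/-KO against KO, with 9 of 9 lower. The 12 markers summed to 12950 and 5408 normalized counts in the first KO libraries, 12940 and 5423 in their repeats, 41490 and 1438 in WT, 1710 and 10180 in IL4-/-, and 952.5 and 5720 in IL4-/-KO, with 1 to 8 of them at 0 in each library. Several of these sums were mostly Ltf, with 40465 in WT replicate 1, 8545 in IL4-/- replicate 2 and 4712 in IL4-/-KO replicate 2. Ltf had 3804 and 4809 in KO replicate 2, but 1833 and 2045 in KO replicate 1. The sums therefore do not rank the libraries by the whole list. Core T cell markers were higher in KO than in WT for 10 of 11 (median 0.68) and lower in IL4-/-KO than in KO for 9 of 11 (median -0.36). The part of any of these lists in the Areg difference was not tested.

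Hbegf, the other EGF receptor ligand (chromosome 18), did not follow Areg. It stood at 5963 and 969 normalized counts in the WT replicates, at 769 and 4267 in the first KO libraries, at 628 and 2825 in their repeats, at 441 and 640 in IL4-/-, and at 302 and 257 in IL4-/-KO. WT and KO overlapped, each with 1 high and 1 low replicate, and both IL4-deficient genotypes lay below every library of WT and KO except that IL4-/- replicate 2, at 640, lay above 1 library of KO replicate 1. Hbegf in IL4-/-KO against KO had a log2 fold change of -2.49 ± 0.95 (limma adjusted p = 0.389), and in IL4-/- against WT -2.18 ± 0.95 (limma adjusted p = 1). IL4-/-KO against IL4-/- gave -0.93 ± 0.95 (limma adjusted p = 1). Averaged over both Tgfbr2 states, the difference with Il4 loss was -2.34 ± 0.67 (limma unadjusted p = 0.00883, adjusted p = 0.332). The high replicates set the size of these differences, as IL4-/- against WT was -0.87 without WT replicate 1 and IL4-/-KO against KO was -1.32 without KO replicate 2. WT replicate 1 also had the highest sum of epithelial markers, but other libraries did not keep that order. IL4-/- replicate 2 had a sum of 149200 with Hbegf at 640, and WT replicate 2 had 35100 with Hbegf at 969. Over the 8 replicates, Pearson's r of Hbegf with the epithelium list mean was 0.64. The part of epithelial cells in the Hbegf values was not tested. With the epithelium list mean as a covariate, IL4-/-KO against KO was -1.66.

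Vegfa (chromosome 17, 46016993 to 46032369, minus strand) was spread like Hbegf. It stood at 5849 and 840 normalized counts in the WT replicates, at 259 and 2104 in the first KO libraries, at 705 and 2320 in their repeats, at 563 and 1350 in IL4-/-, and at 237 and 186 in IL4-/-KO. IL4-/-KO was below every other library and its replicates differed little, at 212 ± 35.7 (SD, n = 2), while WT, KO and IL4-/- overlapped. WT was at 3344 ± 3542, KO at 1347 ± 1223 and IL4-/- at 957 ± 557 (SD, n = 2 each). In IL4-/-KO the log2 fold change of Vegfa was -2.29 ± 1.01 against KO (limma adjusted p = 0.439) and -2.05 ± 1.01 against IL4-/- (limma adjusted p = 1). The difference from IL4-/- was -1.42 without IL4-/- replicate 2 and -2.68 without IL4-/- replicate 1. The difference from KO was -1.19 without KO replicate 2, -3.39 without KO replicate 1 and -1.31 with the epithelium list mean as a covariate. IL4-/-KO replicate 1 had the lowest sum of epithelial markers of all libraries and WT replicate 1, the highest for Vegfa, the highest. Other libraries did not keep that order. Vegfa was lowest in IL4-/-KO replicate 2, whose sum was 69720, and stood at 840 in WT replicate 2, whose sum was 35100. Over the 8 replicates, Pearson's r of Vegfa was 0.67 with the epithelium list mean. It was 0.71 with the platelet and megakaryocyte list and -0.9 with the NK cell and innate lymphoid cell list. The part of any list was not tested. In these bulk samples, fewer cells of a type and less RNA per cell cannot be told apart.

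Vegfb (chromosome 19, 6982473 to 6987651, minus strand) varied least. It stood at 375 and 185 normalized counts in the WT replicates, at 203 and 428 in the first KO libraries, at 295 and 432 in their repeats, at 220 and 283 in IL4-/-, and at 222 and 256 in IL4-/-KO. The 4 genotypes overlapped throughout, with means of 280 ± 135 in WT, 340 ± 128 in KO, 252 ± 44.2 in IL4-/- and 239 ± 24.3 in IL4-/-KO (SD, n = 2 each). No order of the genotypes can be read from them.

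Ecm1 (chromosome 3, 95734147 to 95739569, minus strand) was lowest in IL4-/-KO. It stood at 3068 and 4762 normalized counts in the WT replicates, at 3721 and 3950 in the first KO libraries, at 3118 and 4993 in their repeats, at 1906 and 2941 in IL4-/-, and at 1105 and 601 in IL4-/-KO. WT and KO overlapped almost wholly, IL4-/- lay below both, and IL4-/-KO lay below IL4-/-. The means were 3915 ± 1198 in WT, 3945 ± 744 in KO, 2423 ± 732 in IL4-/- and 854 ± 356 in IL4-/-KO (SD, n = 2 each). IL4-/-KO against KO gave the smallest unadjusted p of any member in any comparison, with a log2 fold change of -2.26 ± 0.42 (limma unadjusted p = 0.000669, adjusted p = 0.321). Against IL4-/-, Ecm1 in IL4-/-KO differed by -1.54 ± 0.42 (limma adjusted p = 1), and IL4-/- differed from WT by -0.69 ± 0.42 (limma adjusted p = 1). Averaged over both Tgfbr2 states, the difference with Il4 loss was -1.48 ± 0.29 (limma unadjusted p = 0.0011, adjusted p = 0.253).

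Ecm1 was also the member with an unadjusted p under 0.05 for the interaction, which asks whether the effect of Tgfbr2 deletion differs with the Il4 background. The interaction was -1.57 ± 0.59 on the log2 scale (limma unadjusted p = 0.0289, adjusted p = 0.988), so the difference between backgrounds did not pass. Within the deeper set of libraries, IL4-/-KO against the repeat KO libraries, Ecm1 differed by -2.27 (limma adjusted p = 0.204). The difference from KO was -2.44 with the epithelium list mean as a covariate and -2.33 with the macrophage list mean. IL4-/- and WT libraries came from different depth sets, so for every gene here Il4 loss with Tgfbr2 intact and the depth set cannot be told apart.

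**Figure D2:**
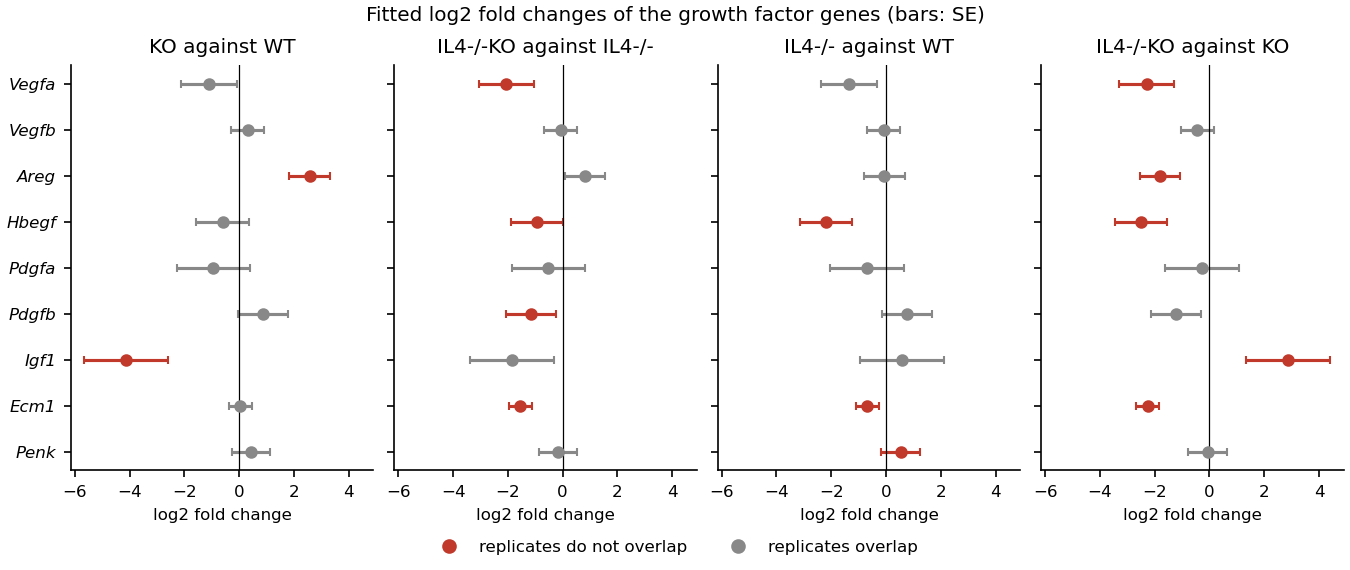
Fitted log2 fold changes with SE bars of the 9 genes in the comparisons of genotypes. Red points mark genes whose replicates do not overlap between the genotypes compared and grey points those that overlap. Areg stands at 2.57 in KO against WT, and Vegfa, Areg, Hbegf and Ecm1 lie between -2.49 and -1.81 in IL4-/-KO against KO.

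Pdgfa (chromosome 5, 138976014 to 138997370, minus strand) stood at 245 and 45 normalized counts in the WT replicates, at 56 and 75 in the first KO libraries, at 82 and 10 in their repeats, at 26 and 159 in IL4-/-, and at 21 and 95 in IL4-/-KO. All 4 genotypes overlapped. The high value of 245 was again that of WT replicate 1, and libraries made from one RNA differed by 1.47-fold and 6.65-fold. An antisense transcript covers 26.1% of the Pdgfa exon bases in GENCODE M21. Whether counting used strand is not given in the sources used here, so reads of the pair cannot be told apart.

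Pdgfb (chromosome 15, 79995874 to 80014977, minus strand), the chain that recruits pericytes, stood at 424 and 120 normalized counts in the WT replicates, at 74 and 297 in the first KO libraries, at 272 and 1653 in their repeats, at 445 and 336 in IL4-/-, and at 191 and 159 in IL4-/-KO. The 1653 came from the repeat library of KO replicate 2, which stood apart in genes detected. Libraries made from one RNA differed by 3.66-fold and 5.56-fold, more than for Areg, Ecm1, Hbegf, Penk or Vegfb. The genotypes overlapped, apart from IL4-/-KO, which lay below IL4-/- with a log2 fold change of -1.15 ± 0.92 (limma adjusted p = 1).

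Igf1 (chromosome 10, 87858265 to 87937042, plus strand) was barely detected. It stood at 34 and 17 normalized counts in the WT replicates, at 0 and 1 in the first KO libraries, at 0 and 1 in their repeats, at 16 and 84 in IL4-/-, and at 4 and 23 in IL4-/-KO. KO was below the other genotypes, which overlapped. Against IL4-/-KO this rests on 5 reads, or 3.71 normalized counts, in IL4-/-KO replicate 1. A value of 0 in the first library of KO replicate 1 allows up to 4.41 normalized counts, so KO and IL4-/-KO are not clearly apart. The counts came from 2 reads in the 4 KO libraries and 39 in the 2 WT libraries, a KO level of 2.12% of WT after scaling for library size (exact 95% interval 0.247% to 8.17%, counting error only). The fitted log2 fold change was -4.12 ± 1.53 against WT (limma adjusted p = 0.384), and IL4-/-KO against KO gave 2.87 ± 1.53 (limma adjusted p = 0.529). These fitted values depend on the pseudocount, and the KO difference from WT ran from -5.54 to -2.41 over all alternatives tried. IL4-/-KO against KO ran from 1.5 to 4.59, and was 1.69 without IL4-/-KO replicate 2 and 4.05 without IL4-/-KO replicate 1. The highest Igf1 value stood in IL4-/- replicate 2, the library with the highest macrophage sum, where Lyz2 had 28932 normalized counts against at most 4934 elsewhere. Whether those cells gave the Igf1 reads was not tested.

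Penk (chromosome 4, 4133531 to 4138819, minus strand) differed widely between replicates in KO and IL4-/-KO and little in WT and IL4-/-. It stood at 1857 and 2052 normalized counts in the WT replicates, at 6040 and 972 in the first KO libraries, at 4400 and 1682 in their repeats, at 3061 and 2606 in IL4-/-, and at 4427 and 1428 in IL4-/-KO. In both genotypes with Tgfbr2 deleted, 1 replicate was high and 1 low, and each spanned the values of WT and IL4-/-. The means were 1955 ± 137 in WT, 3273 ± 2753 in KO, 2833 ± 322 in IL4-/- and 2927 ± 2121 in IL4-/-KO (SD, n = 2 each). IL4-/- lay above WT without overlap, with a log2 fold change of 0.53 ± 0.70 (limma adjusted p = 1). A transcript on the other strand covers 14.3% of the Penk exon bases, with the same limit as for Pdgfa.

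Over the 9 genes, limma called 0 past an adjusted p of 0.05 in each of the 7 comparisons, and edgeR's quasi-likelihood test on the recovered reads also called 0, with 0.0138% of all genes for Tgfbr2 deletion averaged and 0% elsewhere. Across all 14473 genes tested, limma called 0.00691% in KO against WT, 0.0207% for Tgfbr2 deletion averaged over both backgrounds and 0% in the other 5. At an unadjusted limma p under 0.05, 2 of the 9 passed in KO against WT, where 12.1% of all genes did, and 1 in IL4-/-KO against IL4-/- (all genes 3.25%). The count was 3 of 9 for Tgfbr2 deletion averaged (all genes 9.87%), 0 in IL4-/- against WT (4.08%), 3 in IL4-/-KO against KO (11.7%), 3 for Il4 loss averaged (11.5%) and 1 in the interaction (3.52%).

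DESeq2 on the same reads called more genes in each comparison. For DESeq2 and edgeR the reads of the first and repeat library of a KO replicate were summed, while limma used their average. It called Areg in KO against WT (log2 fold change 2.39, DESeq2 adjusted p = 0.0421), where 3.64% of all genes were called, and Areg for Tgfbr2 deletion averaged (1.72, DESeq2 adjusted p = 0.0497, all genes 2.29%). In IL4-/-KO against KO it called Ecm1 (-2.24, DESeq2 adjusted p = 0.000793) and Hbegf (-2.90, DESeq2 adjusted p = 0.0394), with 2.72% of all genes. For Il4 loss averaged it called Ecm1 (-1.47, DESeq2 adjusted p = 0.00239), Hbegf (-2.80, DESeq2 adjusted p = 0.00148) and Vegfa (-2.28, DESeq2 adjusted p = 0.0239), with 2.27% of all genes. It called 0 members in IL4-/-KO against IL4-/- (all genes 0.352%), in IL4-/- against WT (0.214%) and in the interaction (0.242%). The main test called none of the named results.

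Replicates failed to overlap for 1 member higher and 1 lower in KO against WT, where 17.5% of all genes were higher and 20.1% lower without overlap. In IL4-/-KO against KO, 1 member, the barely detected Igf1, was higher and 4 lower, against 22.8% and 23.3% of all genes. In IL4-/-KO against IL4-/-, 0 members were higher and 4 lower, against 16.8% and 16.2%. IL4-/- against WT had 1 higher and 2 lower, against 14.7% and 14.6%. In both Tgfbr2 states at once, Il4 loss had 0 higher and 2 lower, Hbegf and Ecm1, against 5.35% and 5.64%, and in both Il4 backgrounds at once Tgfbr2 deletion had 0 and 0, against 5.67% and 4.63%. Read over all 10 libraries without averaging, the same 2 members in KO against WT and the same 5 in IL4-/-KO against KO did not overlap, where 22.6% and 28.6% of all genes did not. The median log2 fold change of the 9 genes was 0.03 in KO against WT (all genes -0.07), -0.93 in IL4-/-KO against IL4-/- (all genes -0.03), -1.23 in IL4-/-KO against KO (all genes -0.07) and -0.08 in IL4-/- against WT (all genes 0.01). In IL4-/-KO against KO the epithelium list had a median of -1.87, with 17 of its 19 members lower. The list mean thus differed along with genotype, and a covariate fit cannot tell them apart. Whether those cells had a part in the lower growth factor values was not tested.

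**Figure D3:**
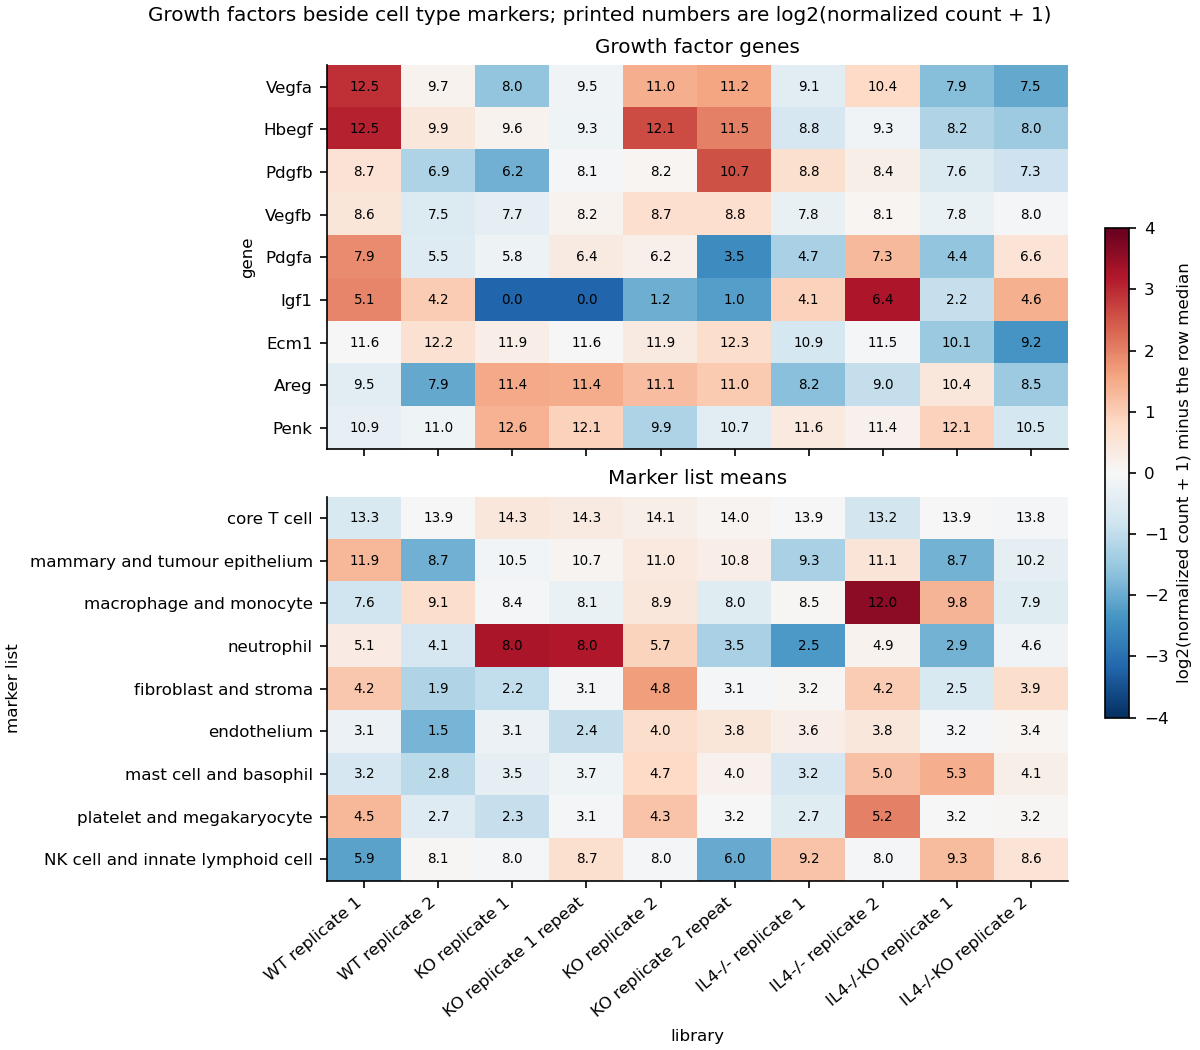
log2(normalized count + 1) of the growth factor genes and the mean of each cell type marker list in every library, printed in each cell and coloured by the difference from the row's median. WT replicate 1 has the highest Vegfa, Hbegf and epithelium values, and IL4-/- replicate 2 the highest macrophage mean, at 12.01.

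The genes that followed each member most closely over the 8 replicates were sought among 9965 genes with a mean of at least 7 on the log2 scale, by Pearson's r. Pdgfa and Igf1 fell below that level. For Areg they were Tspan17 (r = 0.972), Bcl2l1 (0.957), which encodes the survival protein Bcl-xL, and Zbtb17 (0.94). For Ecm1 they were Rab10os (0.952), Snhg20 (0.939) and Gch1 (0.935), the enzyme that starts tetrahydrobiopterin synthesis. Vegfa was followed by Sfn (0.973), which encodes the epithelial 14-3-3 sigma protein, Pcx (0.949) and Trim17 (0.949). Hbegf was followed by Ip6k2 (0.972), Cd151 (0.967) and Foxo3 (0.962). For Vegfb the genes were Ift22 (0.992), Crb3 (0.99), a polarity gene of epithelia, and Ccdc120 (0.978), and for Pdgfb Cdk10 (0.99), Gtpbp3 (0.94) and Tmub2 (0.936). For Penk they were Lyrm1 (0.914), Ccdc134 (0.914) and Tmem33 (0.904). Each r was picked as the highest of many over 8 points that share genotype and library, so it describes these samples and has no test.

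Of the related lists, the receptors and processing enzymes of the same pathways were read beside the members. No gene of the VEGF, EGF, PDGF, IGF, opioid or other repair lists passed limma in any comparison. In Tgfbr2 deletion averaged over both backgrounds, 0 of 11 tested VEGF genes, 1 of 16 EGF genes, 1 of 8 PDGF genes, 0 of 12 IGF genes and 0 of 9 opioid genes had an unadjusted limma p under 0.05, all lower, as did 1 lower and 2 higher of 16 other repair genes. Of all genes, 5.21% were lower and 4.66% higher at that threshold. The genes with the smallest p in each list follow. Vegfc, a growth factor of lymphatic vessels, was low, at 86 and 30 normalized counts in the WT replicates, at 9 and 25 in the first KO libraries, at 65 and 146 in their repeats, at 45 and 23 in IL4-/-, and at 4 and 0 in IL4-/-KO, so that KO overlapped WT (log2 fold change with Tgfbr2 deletion averaged over both backgrounds -1.90 ± 0.95, limma adjusted p = 0.547), and the vasodilator peptide gene Adm gave -2.62 ± 1.34 (limma adjusted p = 0.549). Egf, a ligand gene of the EGF receptor, and Nrg1, whose product binds related receptors, gave -3.16 ± 1.36 (limma adjusted p = 0.505) and -3.10 ± 1.65 (limma adjusted p = 0.56), with Egf at 38 or below in every library. Lrp1, an endocytic receptor gene, gave -2.67 ± 1.15 (limma adjusted p = 0.505), and Furin, a protease that matures PDGF chains, 0.49 ± 0.33 (limma adjusted p = 0.634). Lrp1 stood at 2272 in IL4-/- replicate 2, the library with the highest macrophage sum, and at 191 in replicate 1. IL4-/-KO had 180 and 92 for Lrp1, and KO replicate 2, at 126 and 76, overlapped WT replicate 2, at 95.

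Igfbp5 and Igfbp4, which bind IGF1, gave -1.97 ± 1.13 (limma adjusted p = 0.585) and -1.39 ± 0.97 (limma adjusted p = 0.646), and Igfbp5 peaked at 36759 normalized counts in WT replicate 1. Oprl1, the nociceptin receptor gene, was counted in WT alone, at 20 and 17, and is listed at 0 in the other 8 libraries (-2.14 ± 1.10, limma adjusted p = 0.552), and the protease gene Ctsl gave -1.21 ± 0.71 (limma adjusted p = 0.588). Lgals1, which encodes galectin-1, had 9923 and 4518 in WT and 18599 and 15683 in the first KO libraries (1.21 ± 0.35, limma adjusted p = 0.394), and Tgfb1 gave 0.62 ± 0.20 (limma adjusted p = 0.437). Adam17, the sheddase of Areg and Hbegf, had 1085 to 3303 normalized counts in all libraries, and Egfr, their receptor, 28 to 947 with its higher values in WT replicate 1 and IL4-/- replicate 2.

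The hypoxia and glycolysis list was read beside Vegfa, which overlapped between WT and KO. Its median log2 fold change there was 0.82 (all genes -0.07), with 15 of 20 genes higher (46.7% of all genes) and 11 of 20 higher without overlap (17.5% of all genes). In IL4-/-KO against KO its median was -1.11 and 18 of 20 were lower, while 46.5% of all genes were higher, and 15 of 20 were lower without overlap (23.3% of all genes). It held 0 genes past limma in any comparison. Slc2a3, a glucose transporter gene, stood at 1433 and 2761 normalized counts in the WT replicates, at 11419 and 10476 in the first KO libraries, at 11619 and 9322 in their repeats, at 1614 and 1911 in IL4-/-, and at 6945 and 6752 in IL4-/-KO. Both genotypes with Tgfbr2 deleted lay above both without, at 2.19 ± 0.25 averaged over the backgrounds (limma adjusted p = 0.0893), and Pgk1, a glycolytic enzyme gene, gave 0.93 ± 0.29 (limma adjusted p = 0.422).

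Among 17 genes of regulatory T cells and the alarmin response, the setting in which Areg and Penk are best known, Klrg1 rose with Tgfbr2 deletion. Klrg1, an inhibitory receptor of effector cells, stood at 339 and 206 normalized counts in the WT replicates, at 2976 and 5493 in the first KO libraries, at 2745 and 4928 in their repeats, at 428 and 515 in IL4-/-, and at 7198 and 7600 in IL4-/-KO (log2 fold change averaged over both backgrounds 3.92 ± 0.28, limma adjusted p = 0.00642). It was the only gene of the list past limma in that comparison, where the list median was 1.12 (all genes -0.08) and 13 of 17 were higher (45% of all genes). Unlike Areg, Klrg1 was higher in both IL4-/-KO replicates than in any KO library. Of the 14 genes of TGF-beta feedback and response, 12 were lower with Tgfbr2 deletion averaged, with a median of -1.31, and 0 passed limma. Those with the smallest p were Pmepa1 (-2.47 ± 0.31, limma adjusted p = 0.0977) and Ski (-1.46 ± 0.23, limma adjusted p = 0.186), both feedback inhibitors of the pathway.

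**Figure D4:**
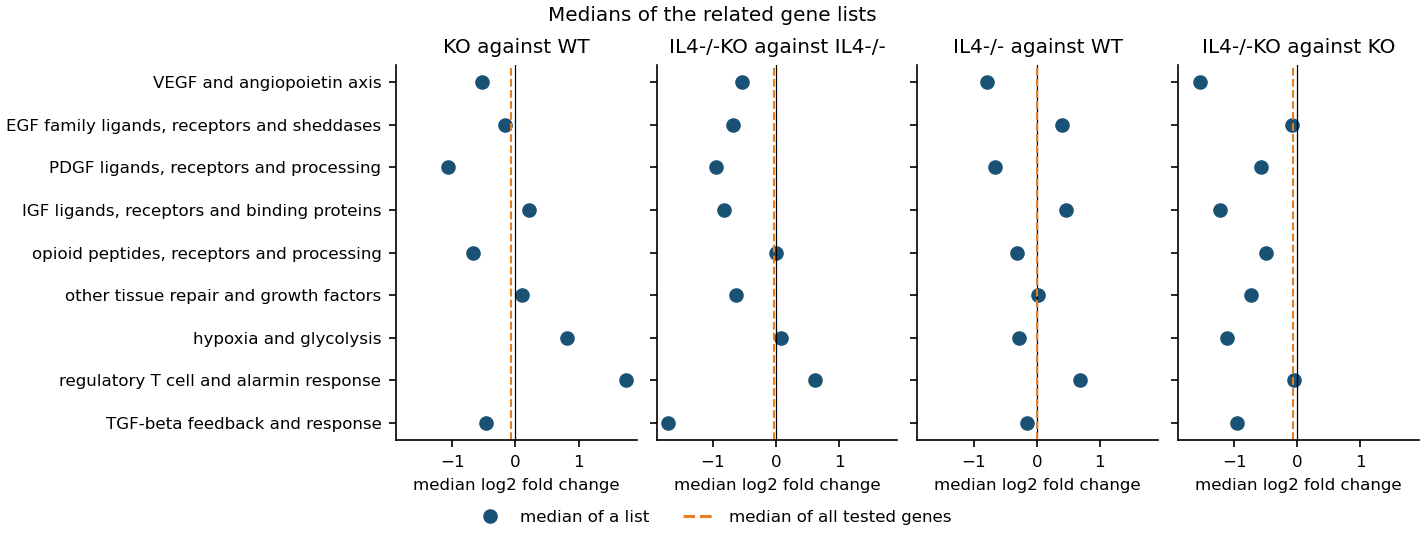
Median log2 fold change of each related gene list (points) in the comparisons of genotypes, with a dashed line at the median of all tested genes. The hypoxia and glycolysis list stands at 0.82 in KO against WT and -1.11 in IL4-/-KO against KO.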

How the data were processed

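Per the labels' protocols, CD4+CD25- T cells were sorted into Trizol, and RNA was amplified with SMART-Seq v4 and made into KAPA Hyper Prep libraries, which carry no molecular identifiers. Per the submitters' processing notes, bcl2fastq 2.18.0, STAR, DESeq2 and mm10 were used. The counter, its annotation and its use of strand are not given in the sources used here. The deposited signal was reads divided by 1 size factor per library, and 100% of values came out as whole reads within 0.001 reads. A value of 0 allows up to 3 reads. That limit is 1.93 to 4.41 normalized counts and covers counting error only. Of 17370 rows, 7 had no gene name (0.0029% to 0.0205% of each library) and were left out.

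The first and repeat KO libraries were averaged per replicate, except for edgeR and DESeq2, where their reads were summed. limma 3.58.1 in R 4.3.3 was fitted with a mean-variance trend to log2(normalized count + 1) in all 4 genotypes, two-sided, with Benjamini-Hochberg adjustment and a threshold of 0.05. This scale understates the change of low genes. Genes that reached 10 normalized counts in 2 or more of the 8 replicates were tested, 14473 in all, with 4 residual degrees of freedom. All 9 members passed this filter. On the recovered reads, the quasi-likelihood test of edgeR 4.0.16 called 0 genes in 6 comparisons and 2 in the average of Tgfbr2 deletion, and DESeq2 1.42.0 called 527 in KO against WT. The fits were tested on simulated data. Figures used matplotlib 3.10.9.

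The members, the 9 related lists (138 distinct genes) and the 13 marker lists were chosen with earlier results of these data known. A fitted value is given where replicates of 2 genotypes do not overlap, in an average where both backgrounds do so in the same direction, and in the interaction where the unadjusted p is under 0.05. DESeq2 calls are named in addition. The 3 genes most like each member are named by Pearson's r. A list names its genes past the test, otherwise the 2 with the smallest p for Tgfbr2 deletion averaged. Gene positions and exon lengths came from GENCODE M21 on mm10. Alternatives, 25 in all, covered the pseudocount, filter, scaling, trend, genotypes fitted, KO libraries, tools, replicate block, covariates and each replicate left out.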

Additional observations from a re-analysis of the deposited data

How the results depend on the processing

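Each limma log2 fold change given for a growth factor gene kept its direction under every alternative run for it, 25 for most and 24 for Igf1, the averages and the interaction. Apart from the interaction, these values were given because replicates did not overlap. Leaving out 1 replicate or changing the pseudocount, filter or trend could therefore not reverse them. The number of the 9 genes past the threshold stayed at 0 in all 7 comparisons under every alternative except DESeq2, which called 1 in KO against WT, 1 for Tgfbr2 deletion averaged, 2 in IL4-/-KO against KO and 3 for Il4 loss averaged; the cause was not tested. Leaving out each replicate in turn also gave 0 throughout. In those fits the log2 fold change of Areg in KO against WT ran from 1.77 to 3.36 and that of Ecm1 in IL4-/-KO against KO from -2.70 to -1.82. Deviations of same-numbered replicates correlated from -0.36 to 0.24 between genotypes. Pairs with WT ran from -0.36 to -0.2 and the others from 0.19 to 0.24. With 2 replicates per genotype these values cannot decide whether the numbers pair the samples. With a replicate block, 0 of the 9 genes passed in every comparison, and Areg in KO against WT was 2.57 (limma adjusted p = 0.482). The block is balanced over genotypes, so it can change the p-values but not the log2 fold changes. Over all genes, limma called 1, 0, 3, 0, 0, 0 and 0 genes in KO against WT, IL4-/-KO against IL4-/-, Tgfbr2 deletion averaged, IL4-/- against WT, IL4-/-KO against KO, Il4 loss averaged and the interaction, DESeq2 527, 51, 331, 31, 393, 329 and 35, and edgeR 2 in the third and 0 elsewhere. The repeat KO libraries alone moved the median of all genes in KO against WT from -0.07 to -0.27, and with them Vegfb and Pdgfb also lay below KO in IL4-/-KO, where 45.3% of all genes did not overlap. Of 432 refits of the list medians, 426 stayed within the spread between replicates and 6 moved. A turn of sign smaller than that spread counts as staying. The PDGF list median ran from -2.39 to 0.1 for Tgfbr2 deletion averaged and from -1.13 to 0.51 for Il4 loss averaged. The TGF-beta feedback list ran from -1.56 to -0.92 for Tgfbr2 deletion averaged, without a turn of sign. Depth limits Igf1, which rests on 0 or 1 read in each KO library.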

Other observations

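A pair of genes of the regulatory T cell list were split between the KO replicates in the direction of Penk, and were picked after their values were seen. Il10, an anti-inflammatory cytokine gene, had 2361 and 2025 normalized counts in the libraries of KO replicate 1 and 207 and 35 in those of KO replicate 2, against 79 and 195 in WT. Ctla4, a checkpoint receptor gene, had 40185 and 38781 in KO replicate 1 and 5244 and 3325 in KO replicate 2, against 5154 and 6204 in WT. In IL4-/-KO, replicate 1 was again the higher, with 476 and 110 for Il10 and 12165 and 3907 for Ctla4. Foxp3, the defining factor of regulatory T cells, was not split that way in KO, with 413 and 330 in replicate 1 and 1526 and 3386 in replicate 2. Nrp1, a co-receptor of VEGF, was highest without Il4, with 1189 and 2391 in WT, 1198 and 1607 in the first KO libraries, 3510 and 4297 in IL4-/-, and 4890 and 3724 in IL4-/-KO.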
